A study of Mus musculus with 6 samples.

Results

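The replication-dependent histone genes were examined in peak lists from cultured mouse group 2 innate lymphoid cells (ILC2s), lymphocytes without antigen receptors that reside in tissues and release type 2 cytokines. Genes were chosen by name: a protein-coding gene of the GRCm38.p6 annotation (the assembly also called mm10) was taken when its symbol began with H1f, H2ac, H2bc, H3c or H4c and a digit. This rule gave 67 of 21887 protein-coding genes, of which 10 encode linker histone H1, 17 H2A, 16 H2B, 12 H3 and 12 H4. The 3 groups of libraries were compared with each other: cells treated with FK866 plus succinate, cells treated with FK866 alone, and Control cells. FK866 inhibits NAMPT, the enzyme that recycles nicotinamide into NAD, and succinate is an intermediate of the tricarboxylic acid cycle. All 3 groups were ILC2s from the colon kept with the cytokines IL-33, IL-25, IL-7 and IL-2 and sorted again after culture, with 2 libraries in each group and 6 in all. Strain, sex, age, doses, treatment times and the number of animals were not given in the sources used here, nor was it stated whether the libraries of a group came from separate cultures, so every p-value below measures only the spread between these libraries, which may be technical.

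CUT&Tag uses an antibody to bring a transposase to chromatin, and the DNA next to the bound target is tagged and sequenced. The sources used here do not name the target of the antibody, and a peak marks only a stretch where that target was enriched. In a bulk sample, more cells carrying the target at a site and more target per cell cannot be told apart. The lists held between 40320 and 56361 peaks per library, with a median peak width between 528 and 737 bp. Depth was not given as read counts, and the local background inferred from the steps of the fold values lay between 1.25 and 2.14 fragments per position. The second FK866 plus succinate library had the most peaks, the narrowest peaks and the lowest inferred background, and the median difference between FK866 plus succinate and FK866 is given below with and without it. All 10 ILC2 marker genes, among them Gata3, Il5 and Il13, had a peak in their windows in all 6 libraries. So did 64.0% of the 21820 protein-coding genes outside the histone set. The starts of 8 of the 10 markers lay in a peak in all 6 libraries. The Rora start lay in a peak in 5 libraries and the Bcl11b start in no peak. Windows of Cd8a, Ms4a1 and Krt20, which mark T cells, B cells and epithelium, had no peak. Cd3d, Cd4, Cd79a and Epcam windows had peaks in all 6 libraries, and a peak of an unnamed target does not measure expression.

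Most histone genes lie in tandem clusters and lack introns, and they are transcribed when DNA is copied, so that new chromatin can be packed. Their transcripts end in a stem-loop instead of a poly(A) tail, and the factor NPAT gathers with the 3′-processing machinery at the clusters in nuclear histone locus bodies. H2A and H2B genes are often paired head to head around one shared promoter. A smaller group of histone genes, including the linker histones H1f0 and H1f10, is expressed independently of replication, and some members of the clusters are used mainly in the germline: H1f6 (H1t) in the testis, and the neighbours H2ac1 and H2bc1 (TH2A and TH2B) in testis and oocyte.

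By position, 63 of the 67 genes fell into 4 clusters, runs in which neighbours lay no more than 200 kb apart. Cluster A on chromosome 13 held 17 genes (chr13:21715711-21833475), cluster B held 5 (chr13:22035122-22043658) and cluster C held 31 (chr13:23531044-23934913). The cluster on chromosome 3 held 10 genes (chr3:96219885-96270192). The 4 remaining genes stood alone: H1f10 and H1f8 (H1oo, the oocyte linker histone) on chromosome 6, and H1f0 and H1f7 (H1t2, a spermatid linker histone) on chromosome 15. These 4 match the naming rule but are not genes of the replication-dependent clusters. The rule also leaves out 4 genes whose older symbols begin with Hist, namely H4f16, H2bu2, H2aw and H4bc24, and the start of each of these lay in a peak in all 6 libraries.

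Promoter sequences were taken from RefSeq (GRCm38.p6), whose table listed a start for 62 of the 67 genes. H2bc21, H4c14, H3c7, H2bc4 and H3c1 had no entry. The sequences below are the ones the results turn on, written 5′ to 3′ on the strand given, with matches on either strand to 5 short motifs in capitals: the TATA box (spelled TATAAA), the CCAAT box, the octamer known from H2B promoters (spelled ATTTGCAT), the letters GGTCCG of H4 promoter site II and the H1 box (spelled AAACACA). A match is only a run of letters and was not tested as a binding site. The first pair of sequences spans the stretch between the starts of divergent H2B and H2A genes, plus strand. The H2bc1-H2ac1 stretch (chr13:23934157-23934436) had no peak in any library, and the H2bc13-H2ac13 stretch (chr13:21716184-21716411) served the gene whose window differed most between groups.
H2bc1-H2ac1: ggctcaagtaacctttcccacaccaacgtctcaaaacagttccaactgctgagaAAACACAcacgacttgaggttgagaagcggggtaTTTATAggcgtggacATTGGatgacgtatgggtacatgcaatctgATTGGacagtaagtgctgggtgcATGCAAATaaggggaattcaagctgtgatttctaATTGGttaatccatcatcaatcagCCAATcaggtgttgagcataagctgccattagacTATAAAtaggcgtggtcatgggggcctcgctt
H2bc13-H2ac13: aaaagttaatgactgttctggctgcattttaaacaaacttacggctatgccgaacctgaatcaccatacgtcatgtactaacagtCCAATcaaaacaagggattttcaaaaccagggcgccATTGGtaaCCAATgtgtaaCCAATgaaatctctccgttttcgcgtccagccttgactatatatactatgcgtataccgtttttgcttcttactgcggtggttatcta
The next pair compares linker histone promoters over the 120 bases before the start, H1f6 without a peak at its start (chr13:23695691-23695810, plus strand) and H1f4 with one of the strongest (chr13:23622559-23622678, minus strand).
H1f6: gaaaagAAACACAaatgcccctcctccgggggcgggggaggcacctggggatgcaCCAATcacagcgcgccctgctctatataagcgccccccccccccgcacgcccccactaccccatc
H1f4: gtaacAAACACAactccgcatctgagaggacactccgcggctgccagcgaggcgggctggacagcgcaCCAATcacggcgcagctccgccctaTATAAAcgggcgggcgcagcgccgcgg
The last pair, also 120 bases, holds the H4 genes H4c4 (chr13:23581448-23581567, plus strand) and H4c3 (chr13:23698459-23698578, minus strand). Their start peaks were weak and strong, in this order, by enrichment over the local background.
H4c4: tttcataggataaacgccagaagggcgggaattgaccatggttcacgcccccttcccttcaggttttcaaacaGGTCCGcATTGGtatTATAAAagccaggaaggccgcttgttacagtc
H4c3: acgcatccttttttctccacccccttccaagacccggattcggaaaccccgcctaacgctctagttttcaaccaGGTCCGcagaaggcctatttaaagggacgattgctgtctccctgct

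Starts of histone genes were nearly all inside peaks. Of the 62 genes with a listed start, 57 (91.9%) had it in a peak in all 6 libraries, whereas the share was 54.3% over the 17492 protein-coding genes with a listed start, and 9.97% (210 of 2107) among other genes that span 2 kb or less, the length class of a typical histone gene. The count was 57 as well with peaks of adjusted p under 0.05, with lists of equal length, with the higher-scoring 50% of each list, and without any 1 library. By family, all 10 H3 and all 11 H4 genes with a listed start had it in a peak in all 6 libraries, as did 16 of 17 H2A, 13 of 14 H2B and 7 of 10 H1 genes. The 5 exceptions were H1f6, H1f7, H2ac1 and H2bc1, whose starts lay outside every peak, and H1f8, whose start lay in a peak of the second FK866 plus succinate library only. All 5 are the germline genes named above. The rule for choosing genes used only their names, so these shares are a description of where the peaks lay and were given no test.

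The germline genes differed in their surroundings. H2bc1 (chr13:23933725-23934156) and H2ac1 (chr13:23934437-23934913) end cluster C, and their windows, the gene span plus 2 kb on either side, held no peak in any library. The non-histone genes Trim38, Slc17a1, Slc17a2, Slc17a3 and Slc17a4 lie between them and the rest of the cluster, and their windows also held no peak. Hfe, the iron-regulating gene amid the histone genes of the same cluster, had its start in a peak in all 6 libraries, with a mean window coverage of 13.01%. H1f6 (chr13:23695811-23696545) sits between peak-bearing histone genes, and its window was covered to 19.4% and 20.9% in FK866 plus succinate libraries, 20.9% and 19.5% in FK866 libraries and 20.2% and 21.9% in Control libraries. The H1f6 values of the groups overlap, and the covered stretch belongs to the peak over the start of the neighbouring H4c3. H1f7 had no peak in its window in any library.

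**Figure D1:**
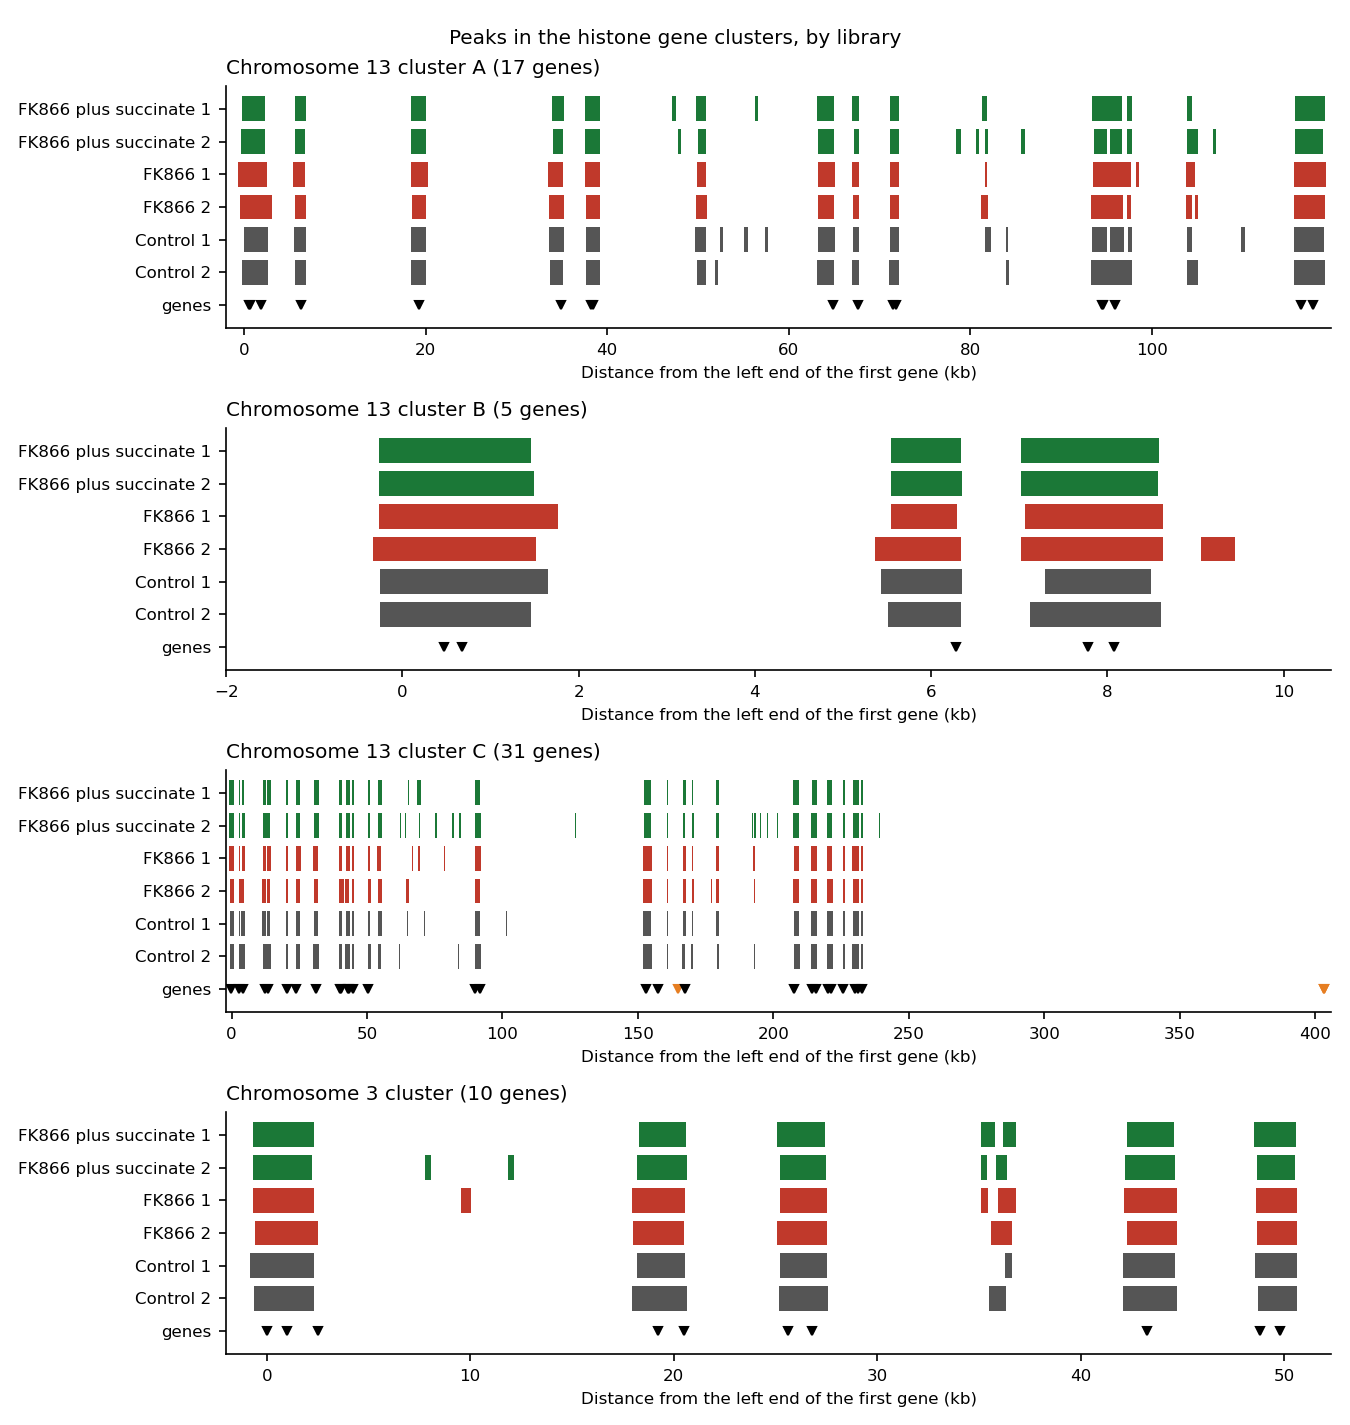
Peaks of each library (bars, 1 row per library) along the 4 histone gene clusters, with the distance from the left end of the first gene in kb on the horizontal axis and gene starts, or span midpoints where no start is listed, as triangles (orange where the gene has no start in a peak). Most triangles in all 4 panels sit under bars that recur in all 6 rows, and the orange triangles at the far right of cluster C, H2bc1 and H2ac1, have none.

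The peaks over histone gene starts were fewer than the genes. Between 38 and 41 distinct peaks per library held the starts, and 16 or 17 of these covered several starts, at most 3. Peaks that overlap across the lists were joined into regions, and 55 regions touched the gene windows of the 4 clusters. Of these, 39 (70.9%) recurred in all 6 libraries and 9 (16.4%) were seen in a single library, against shares of 21.7% and 49.5% over all 101435 regions. The regions over all were narrower, with a median of 533 bp against 1602 bp, and were not limited to gene starts. At other genes recurrence was common too: 9442 starts lay in a peak in all 6 libraries and 1185 in only some. The widest of the 39 was 4541 bp long (chr13:21809000-21813540) and spans H2ac23, H4c17 and the start of H2bc23. No region touching the cluster windows was present in both libraries of one group and absent from both of another in the comparison of FK866 plus succinate with FK866. In each comparison with Control, 1 such region was present in both Control libraries but neither library of the treated group (chr13:21799636-21800021, in the window of H2bc22), and none was gained. Of all 101435 regions, 1420 were gained and 2072 lost in FK866 against Control. The counts were 2470 and 2088 for FK866 plus succinate against Control, and 2799 and 1705 for FK866 plus succinate against FK866. Such regions were rare everywhere, so the counts among 55 regions do not set the clusters apart.

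Peak strength at these starts was moderate within each list. The fold enrichment of a peak over its local background, the authors' own value, had a median between 4.321 and 4.998 over the histone genes with a start in a peak, against 7.95 to 8.52 over other genes with a start in a peak. The median rank of the histone start peaks by -log10 p lay between the 72.1 and the 82.2 percentile of their list, against 86.2 to 90.2 for other genes. Peak width had a median of 1650 to 1922 bp at histone genes and 1541 to 1635 bp at other genes when a shared peak was counted once for each gene. With each histone start peak counted once, the median was 1542 to 1736 bp, a range that overlaps that of the other genes. Peaks that covered several histone starts had median widths of 1856 to 2124 bp, and those with 1 start 1146 to 1464 bp.

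Among the members, the fold was highest at H3c6, a core H3 gene, where it lay between 7.51 and 9.55 over the 6 libraries. H4c3 (6.67 to 9.39), H4c11 (7.12 to 8.23) and the linker histone gene H1f4 (6.66 to 7.60) followed, and their ranges overlap. H1f4 shares its start peak with H2bc6. The lowest fold was 2.31 to 3.43 at the linker gene H1f1, below 2.77 to 3.29 at H4c4 and 2.597 to 3.472 at H4c2, with ranges that also overlap each other. The H4 genes printed above thus differ in fold beyond their spread over libraries, and both carry the GGTCCG letters. By the rank of -log10 p the order differed. The mean percentile over libraries was 84.3 at H3c15 and H2ac19, which share a start peak, and 81.8 at H3c6. It was 65.5 at H1f10 and 66.6 at H1f1. H3c6, H4c3, H4c11 and H1f4 were chosen after their values were seen, as were H1f1 and H4c4.

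The summit of a start peak usually lay just inside the gene. Over the 25 genes whose start was the only listed histone start in its peak, 83.2% of 137 summits lay downstream of the start. The median position of all 137, with upstream positions counted as negative, was 152 bp downstream (interquartile range 78 to 224 bp). Genes without a listed start were not counted here, so a peak with 1 listed start can still reach into such a neighbour, as those of H2ac6 and H4c1 can into H2bc4 and H3c1. At the replication-dependent linker gene H1f5 the summit lay 167 bp downstream in both FK866 plus succinate libraries, 906 and 939 bp in FK866 libraries and 703 and 705 bp in Control libraries. At the linker gene H1f2 it lay 1087 and 137 bp downstream in FK866 plus succinate, 1001 and 1087 bp in FK866 and 1067 and 1198 bp in Control. A summit is 1 position in each library and these shifts, at genes chosen after their values were seen, were given no test. At the 57 starts inside peaks, peak cover reached further upstream than at the 210 other short genes with a start in a peak in all 6 libraries: 1000 bp before the start, between 36.8% and 45.6% of the histone genes and between 20% and 24.3% of the short genes were covered. Close to the start the order was turned: 200 bp before it, 75.4% to 80.7% of the histone genes and 86.7% to 90.95% of the short genes were covered. So it was at 500 bp after the start, with 77.2% to 86.0% of the histone genes and 92.4% to 94.8% of the short genes. At 1500 bp after the start, 29.8% of the histone genes were covered in every library, against 10.95% to 14.29% of the short genes, and in the clusters such positions can belong to a neighbour.

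**Figure D2:**
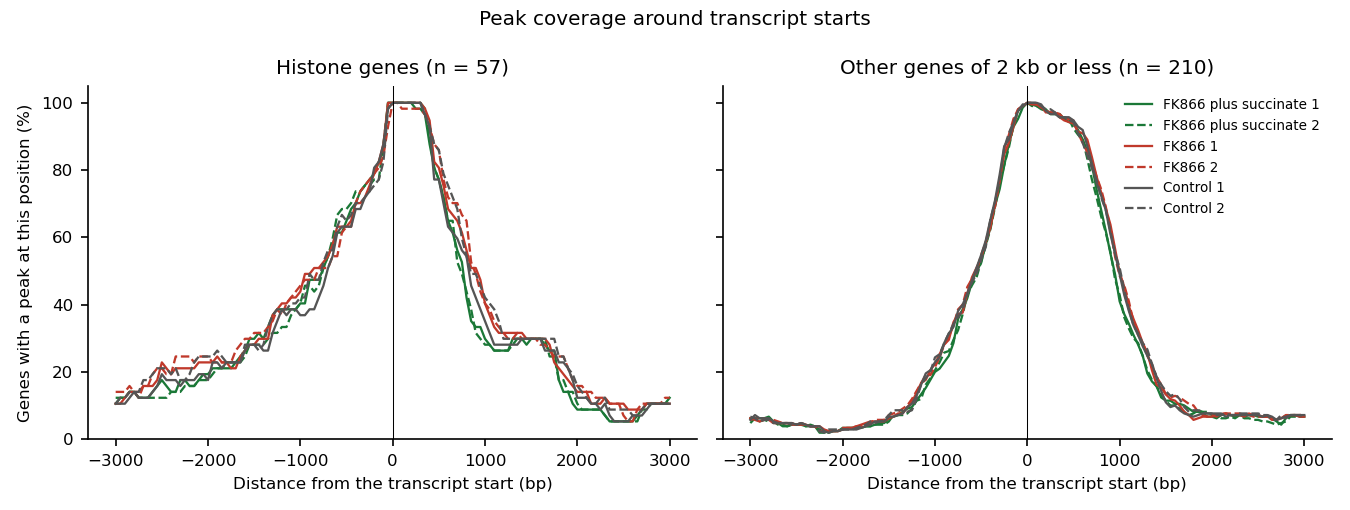
Percentage of genes with a peak at each position from 3000 bp before to 3000 bp after the transcript start (horizontal axis, bp), 1 line per library, for the 57 histone genes with a start in a peak (left) and 210 other genes of 2 kb or less (right). The histone gene curves lie higher at 1000 bp before and 1500 bp after the start and lower at 200 bp before and 500 bp after it, and the 6 libraries lie close together in each panel.

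The head-to-head arrangement showed in the peaks. Among genes with a listed start, 9 H2A and H2B pairs had divergent starts 164 to 281 bp apart, and at 8 of them a single peak covered both starts in all 6 libraries. The exception was the germline pair H2bc1 and H2ac1, with none. H2ac6 and H2ac20, whose H2B neighbours H2bc4 and H2bc21 have no listed start, were not counted as pairs. Nor was H2ac24, whose neighbour H4bc24 (older symbol Hist1h2br, an H2B name) falls outside the naming rule. Of the 48 summits of these shared peaks, 8 lay between the starts, 15 on the side of the minus-strand gene and 25 on the side of the plus-strand gene. The side was mostly kept from library to library: at H2bc23 and H2ac23 all 6 summits lay on the H2B side, at H2bc7 and H2ac7 5 lay on the H2B side and 1 between the starts, and at H2ac8 and H2bc8 all 6 lay on the H2B side. At H2bc13 and H2ac13 the summits were split, 3 on either side. In the second Control and first FK866 libraries the summit lay beyond H2ac13. There it was 97 and 40 bp downstream of the start of H3c10, which lies in the same peak.

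Promoter letters followed the families. The window searched ran from 250 bases before to 50 after each start, on both strands, and 63 histone promoters were compared with all 32851 promoters of the table; paired genes share much of this window and are not independent. CCAAT was present in 82.5% of histone promoters and 37.4% of all promoters, in every H2A, H2B and H3 promoter and in 3 of 11 H4 promoters. GGTCCG was present in 10 of 11 H4 promoters, against 8.25% of all promoters. The octamer ATTTGCAT was found in 7 of 15 H2B and 6 of 17 H2A promoters (1.74% of all promoters), and the E2F-type letters TTTCGCGC in 4 of 15 H2B and 5 of 17 H2A promoters (0.323% of all). TATAAA occurred in 54.0% of histone promoters and 13.6% of all, and AAACACA in 5 of 10 H1 promoters (7.18% of all). The H2bc1-H2ac1 stretch printed above holds the letters of the TATA box, the CCAAT box, the octamer and the H1 box although no peak covered it, and the H1f6 stretch holds those of the H1 box and the CCAAT box as H1f4 does.

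Some members are near copies. Promoter identity was 99.0% between H4c17 and H4c18, 90.2% between H3c15 and H3c14 and 87.6% between H4c11 and H4c12, with a median of 50.6% over 372 pairs within a family. Reads from near-identical sequence may not be placed at a single gene, how the authors treated such reads was not given in the sources used here, and its part in the values of these genes was not tested.

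Window coverage, the percentage of a gene's span plus 2 kb on either side that peaks cover, measured the presence and width of peaks and not their height. Its median over the 67 genes, as a mean of the 6 libraries, was 42.2%, against 0% for other genes spanning 2 kb or less and 4.05% for all other genes. By family the medians were 51.9% for H2A, 45.8% for H3, 40.8% for H2B, 37.7% for H4 and 32.8% for H1. The spread within a family was far larger than these steps. Highest were the H2A gene H2ac24 (75.9%) and the H4 gene H4c17 (75.8%), for which several starts lie within 1 window, followed among H3, H2B and H1 genes by H3c1 (61.3%), H2bc13 (61.5%) and H1f0 (57.1%). The lowest gene of each family, among genes with a peak, was H1f8 (4.37%) for H1, H2bc22 (9.79%) for H2B, H4c2 (13.8%) for H4, H3c11 (16.2%) for H3 and H2ac22 (23.2%) for H2A. H2bc22 and H2bc6 have RefSeq spans of 14079 and 37455 bp, far longer than a histone coding sequence, which lowers their coverage for a peak of given width.

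**Figure D3:**
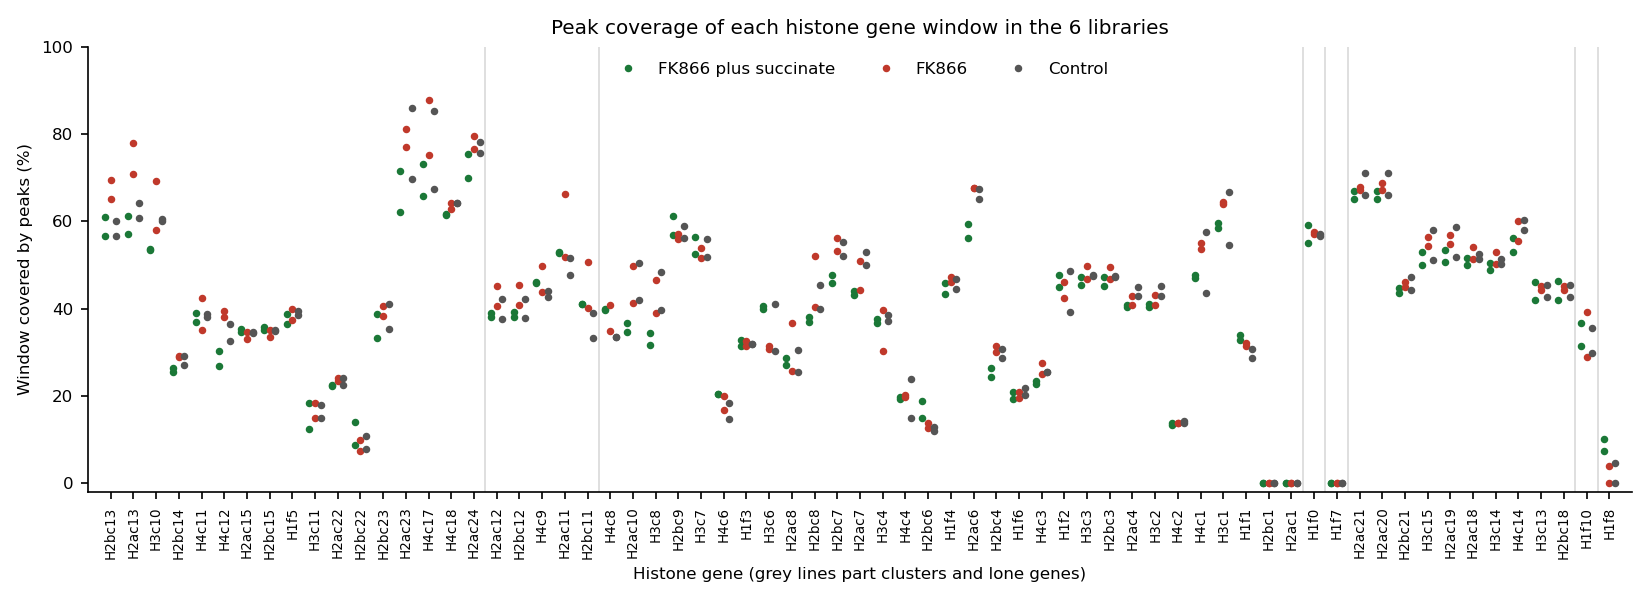
Percentage of each histone gene's window covered by peaks (vertical axis) in every library (points, coloured by group), with genes in order along the chromosomes and grey lines between clusters and lone genes. Coverage differs far more between genes than between groups, and H2bc1, H2ac1 and H1f7 sit at 0 in all libraries.

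The linker histone genes of the clusters, which bind the DNA between nucleosomes, differed in how far their libraries spread. H1f3 was covered to 31.5% and 32.8% in FK866 plus succinate, 32.6% and 31.5% in FK866 and 31.9% and 31.8% in Control. H1f5 was covered to 38.8% and 36.5% in FK866 plus succinate, 39.97% and 37.5% in FK866 and 38.6% and 39.5% in Control. The groups overlap at both genes. H1f2 spread most within a group, with 47.7% and 45.02% in FK866 plus succinate, 42.3% and 46.2% in FK866 and 39.2% and 48.7% in Control. H1f1 had the lowest mean start peak fold. It was covered to 34.04% and 32.8% in FK866 plus succinate, 31.5% and 32.1% in FK866 and 28.8% and 30.8% in Control. No pair of groups overlaps at H1f1, and its difference between FK866 plus succinate and Control was 3.58 points (SE 1.18, adjusted p = 0.488 from limma).

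On chromosome 3 the genes lie in compact pairs, so that neighbours share their values. H2ac19 and H3c15 form one H2A and H3 pair and H2ac18 and H3c14 a second, near-copy pair. H2ac19 was covered to 50.6% and 53.6% in FK866 plus succinate, 57.0% and 54.9% in FK866 and 51.8% and 58.8% in Control. H2ac18 was covered to 51.6% and 50.1% in FK866 plus succinate, 51.4% and 54.1% in FK866 and 51.4% and 52.6% in Control. At H2ac19 both FK866 plus succinate values are below both FK866 values, while at H2ac18 they overlap. H4c14, the H4 gene of the cluster, was covered to 53.0% and 56.2% in FK866 plus succinate, 60.1% and 55.6% in FK866 and 58.0% and 60.3% in Control, and its FK866 plus succinate values lay below Control.

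For each cluster the windows were merged and their coverage taken as 1 value per library, with no test. Cluster A was covered to 30.5% and 30.2% in FK866 plus succinate libraries, 33.4% and 32.7% in FK866 libraries and 31.3% and 32.2% in Control libraries. Both FK866 values lay above the other 4, and both FK866 plus succinate values lay below them. Cluster B was covered to 34.3% and 34.7% in FK866 plus succinate, 36.6% and 40.4% in FK866 and 34.0% and 33.7% in Control, again with FK866 above the other groups. Cluster C was covered to 24.6% and 26.2% in FK866 plus succinate, 24.96% and 25.14% in FK866 and 23.4% and 25.7% in Control, with groups that overlap.

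The cluster on chromosome 3 was covered to 40.9% and 40.7% in FK866 plus succinate, 42.8% and 42.3% in FK866 and 42.3% and 42.7% in Control. Here both FK866 plus succinate values lay below the other 4, and FK866 and Control overlapped. Over all 4 clusters together (241.325 kb in 24 merged windows), coverage averaged 29.0% ± 0.572 in FK866 plus succinate, 30.02% ± 0.0322 in FK866 and 29.2% ± 1.13 in Control (SD, n = 2 each), with ranges that overlap between FK866 plus succinate and Control. With 2 libraries against 2, the smallest two-sided exact permutation p is 0.333, so such a test of a cluster value could not pass 0.05. Outside the merged windows, the rest of the clusters was covered to between 0% and 7.01%. Without the first Control library the FK866 minus Control difference over all clusters was 0.0588 points, and without the second 1.65 points, against 0.854 points with both.

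**Figure D4:**
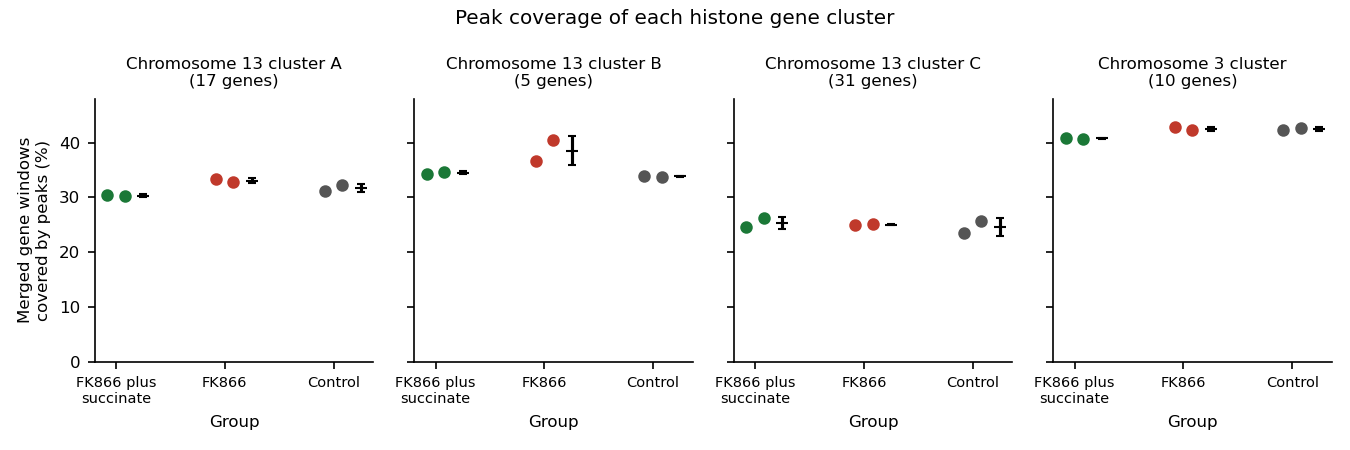
Percentage of the merged gene windows of each cluster covered by peaks (vertical axis), with 1 point per library and, beside it, the group mean and SD (n = 2). The groups lie within a few points of each other in all 4 panels.

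FK866 was compared with Control gene by gene with limma over 15362 genes that had a peak in their window in at least 2 libraries, 64 histone genes among them. No histone gene and no other gene passed an adjusted p of 0.05 (percent called 0%), while 2 histone genes (3.12%) and 761 genes in all (4.95%) had an unadjusted p under 0.05. The 3 untested genes, H2bc1, H2ac1 and H1f7, had no peak. Both FK866 values lay above both Control values at 8 of the 64 (12.5%, against 12.8% of all genes tested) and below them at 1 (1.56%, against 19.9%). The share above was thus near that of all genes and the share below was smaller, and in windows of equal length, 4 kb around each gene's strongest summit, the shares were 15.6% above, against 15.7% of all genes, and 0% below, against 16.3%. The median difference, FK866 minus Control, was 0.68 points over the histone genes and -0.11 points over all genes, and without the first Control library it was 0.0790 points over the histone genes.

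The differences furthest from 0 were at core histone genes of clusters A and B. The H2A gene H2ac13 (chr13:21716412-21716859) was covered to 70.9% and 77.9% in FK866 libraries, against 60.7% and 64.2% in Control libraries, without overlap. Its difference was 11.9 points (SE 3.05, adjusted p = 0.864 from limma), and 6.47 points with 1 kb on either side of the gene instead of 2 kb. Its divergent partner H2bc13, under the same peak, was covered to 69.5% and 65.1% in FK866, against 56.7% and 60.2% in Control. In cluster B, H2ac11 was covered to 51.8% and 66.4% in FK866, against 47.7% and 51.6% in Control. Its partner H2bc11 had 40.1% and 50.7% in FK866, against 33.4% and 39.1% in Control. At both genes the second FK866 library gave most of the difference: without it the difference was 2.16 points at H2ac11 and 3.82 points at H2bc11, against 9.44 and 9.12 points with both. All 5 genes of cluster B had a higher mean in FK866, at a median of 3.47 points, and the 5 windows merge into 2, so these are not 5 separate observations.

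The 1 histone gene whose FK866 values lay below Control was H4c18, with 64.2% and 63.0% in FK866, against 64.3% in both Control libraries. The difference was -0.68 points, and 2.12 points in a 4-kb window at its strongest summit. The region there (chr13:21831366-21834910) reaches past the gene window, and peak cover in both Control libraries ran to the window edge. Width beyond that edge is missing from the -0.68 points. By family, the mean was higher in FK866 at 6 of 9 H1, 10 of 16 H2A, 11 of 15 H2B, 7 of 12 H3 and 9 of 12 H4 genes, with medians between 0.35 and 1.38 points. Neighbours share peaks, so these counts are not of separate observations either. None of these genes passed the limma test, whose smallest adjusted p over the histone genes was 0.864 in this comparison.

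FK866 plus succinate was compared with FK866 in the same fit. This comparison shares its FK866 libraries with the one above. No histone gene and no other gene passed an adjusted p of 0.05 (percent called 0%). An unadjusted p under 0.05 from limma was found at 9 of 64 histone genes (14.1%), against 8.88% of all genes. Both FK866 plus succinate values lay below both FK866 values at 29 of 64 histone genes (45.3%, against 21.8% of all genes tested) and above them at 5 (7.81%, against 17.9%). The 29 genes lie in 13 of the 24 merged windows. The median difference, FK866 plus succinate minus FK866, was -1.94 points over the histone genes and -0.01 points over all genes.

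This share depended on the window and the scaling. Among other genes spanning 2 kb or less, 33% had both FK866 plus succinate values below FK866 and 9.91% above. In the windows of equal length, 39.1% of the histone genes lay below, against 36.7% of all genes, and 7.81% above, against 8.47%, and the medians were -2.23 and -1.51 points. After quantile normalization between libraries 12 of 64 histone genes lay below FK866 (against 23.2% of all genes) and 18 above it (against 16.9%), and the histone median was 0.13 points, so the direction of the median turned. The second FK866 plus succinate library had the narrowest peaks over its whole list, with a median of 528 bp. Its coverage of all 4 clusters was 29.44%, against 28.63% in the first FK866 plus succinate library. The part of peak width in the lower coverage was not tested. Without the second FK866 plus succinate library the histone median was -1.67 points, and without the second FK866 library it was -1.17 points.

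The H2A genes stood lowest in this comparison. The mean was lower in FK866 plus succinate at 15 of 16 H2A genes (median -3.97 points), 11 of 15 H2B (-3.11), 9 of 12 H3 (-1.58), 10 of 12 H4 (-1.49) and 4 of 9 H1 genes (0.05), none past the limma threshold. Over other genes spanning 2 kb or less the median was -1.09 points. Neighbouring histone genes share peaks, so these counts are not of separate observations. H2ac13 was covered to 57.0% and 61.4% in FK866 plus succinate, against 70.9% and 77.9% in FK866. The difference was -15.2 points (SE 3.05, adjusted p = 0.405 from limma), and -1.84 points with 1 kb on either side of the gene and -5.74 points in a 4-kb window at its strongest summit. The FK866 plus succinate values overlap those of Control. At H2ac6 (chr13:23683473-23683959), which had the smallest p of the histone genes, coverage was 56.3% and 59.3% in FK866 plus succinate, against 67.6% in both FK866 libraries. Its difference was -9.81 points (SE 1.53, adjusted p = 0.385 from limma). The region there (chr13:23682927-23686308) reaches past the window, and peak cover in both FK866 libraries ran to the window edge. The equal values and the SE therefore leave out any spread beyond that edge.

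The H4 gene H4c12 had 30.2% and 26.8% in FK866 plus succinate, against 39.4% and 38.2% in FK866, without overlap. The neighbours H2ac23 and H4c17, under the widest region, had 71.7% and 62.2%, and 73.1% and 65.9%, in FK866 plus succinate, against 81.3% and 77.1%, and 87.9% and 75.2%, in FK866. The Control values of these neighbours (69.7% and 86.1%, and 67.5% and 85.2%) spread over both groups. A few genes ran the other way. At H3c6, the gene with the highest start peak fold, coverage was 40.5% and 39.8% in FK866 plus succinate, against 31.4% and 30.7% in FK866. Control stood at 30.3% and 41.2%. H4c6 had 20.5% and 20.4% in FK866 plus succinate, against 16.9% and 20.1% in FK866.

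The oocyte linker gene H1f8 was covered to 7.46% and 10.1% in FK866 plus succinate, against 0% and 3.88% in FK866 and 4.73% and 0% in Control. Its window thus held a peak in 4 of 6 libraries, both of FK866 plus succinate among them, and its differences were 6.87 points from FK866 and 6.44 points from Control (adjusted p = 0.527 and 0.503 from limma). In a 4-kb window at its start the difference from Control was 2.81 points. H2bc6 had 14.9% and 18.9% in FK866 plus succinate, against 13.8% and 12.7% in FK866. Another start is also listed for H2bc6, and only the first was used here. Within the long span the extra cover lies in peaks away from that first start. In a 4-kb window at the first listed start the H2bc6 difference was -2.51 points. By cluster, the mean was lower in FK866 plus succinate than in FK866 at all 10 genes of the chromosome 3 cluster and all 5 of cluster B. It was lower at 14 of 17 in cluster A and at 19 of 29 tested in cluster C. Windows of neighbours merge, into 5 in the chromosome 3 cluster and 2 in cluster B, so these genes are not separate observations.

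**Figure D5:**
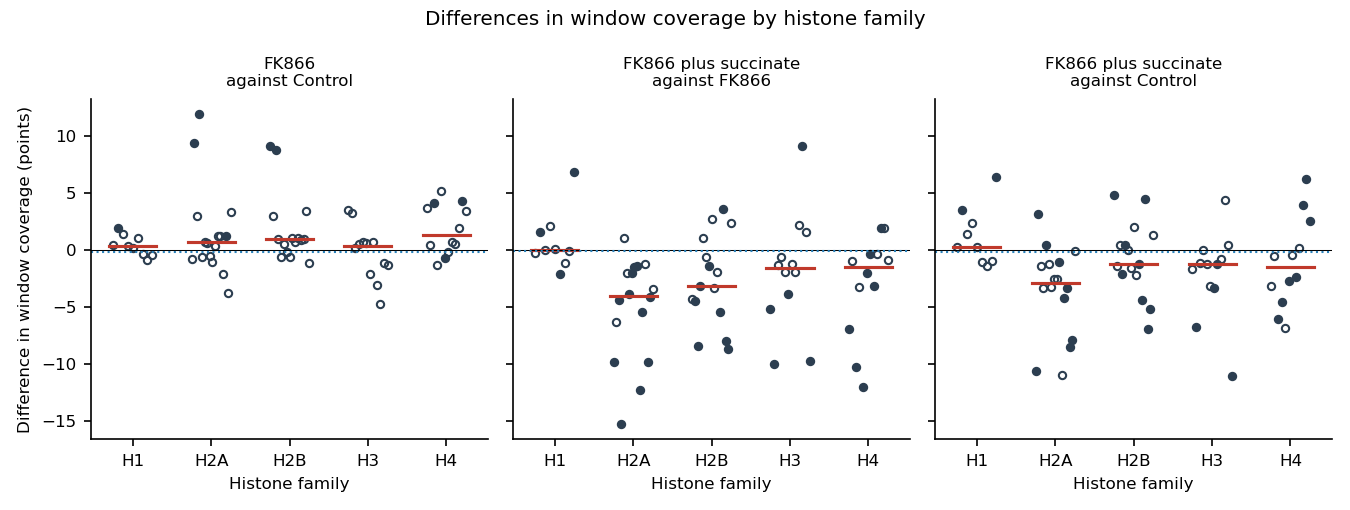
Difference in window coverage in percentage points (vertical axis) for each tested histone gene by family, in the 3 comparisons, filled where the 2 groups do not overlap and open where they do, with red bars at family medians and a dotted line at the median of all genes tested. No point passed the limma threshold. H2A medians lie lowest in both comparisons with FK866 plus succinate, at -3.97 and -2.86 points.

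FK866 plus succinate was also compared with Control, using the same libraries as both comparisons above. Again no gene passed an adjusted p of 0.05 (percent called 0%). An unadjusted p under 0.05 from limma was found at 11 of 64 histone genes (17.2%), against 9.43% of all genes. Both FK866 plus succinate values lay below both Control values at 19 of 64 histone genes (29.7%, against 24.5% of all genes tested) and above them at 10 (15.6%, against 13.4%), shares near those of all genes. In the windows of equal length, 26.6% lay below, against 37.2% of all genes, and 10.9% above, against 8.02%. The median difference was -1.21 points over the histone genes and -0.13 points over all genes, and it was 1.01 points after quantile normalization. Without the second Control library it was -0.39 points.

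The H2A gene H2ac6 had 56.3% and 59.3% in FK866 plus succinate, against 65.1% and 67.5% in Control, a difference of -8.52 points (SE 1.53, adjusted p = 0.408 from limma, the smallest among the histone genes here). With 1 kb on either side of the gene the H2ac6 difference was -14.2 points. The region at H2ac6 reaches past both windows, so width beyond their edges is not counted. H3c8 and H2ac10, neighbours at one end of cluster C, had 31.6% and 34.5%, and 34.6% and 36.7%, in FK866 plus succinate, against 39.7% and 48.3%, and 41.9% and 50.5%, in Control. H2ac7 had 44.2% and 43.0% in FK866 plus succinate, against 49.97% and 52.97% in Control. These 4 genes did not overlap between the groups, and none passed the limma threshold. Above Control lay H4c8, with 39.64% and 39.98% in FK866 plus succinate, against 33.6% in both Control libraries, whose peaks have the same bounds there. H2bc11 had 41.0% and 41.1% in FK866 plus succinate, against 33.4% and 39.1% in Control, and H2bc6 had 14.9% and 18.9%, against 11.9% and 12.9%.

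Histone genes outside the clusters and the genes that serve the clusters gave no called difference either. Of 12 replication-independent histone genes, among them H2az1, H2ax, H3f3a and H3f3b and the members H1f0 and H1f10, 11 had a window peak in all 6 libraries. H2ab1, a testis variant on chromosome X, had none. H1f0 was covered to 55.1% and 59.2% in FK866 plus succinate, 57.6% and 57.1% in FK866 and 56.6% and 57.1% in Control, with groups that overlap. All 20 factors of histone gene transcription and 3′-end processing had a window peak in all 6 libraries. Among them were Npat, Slbp, which binds the stem-loop, and Lsm10 and Lsm11 of the U7 particle. Such peaks were common: 64.0% of the 21820 protein-coding genes outside the naming rule had a window peak in all 6 libraries. Any peak in a window counts, and some factors are long, such as Npat (38739 bp) and Pou2f1 (137600 bp). The counts for these lists were not tested against other genes. Of the 20 factors, 0 passed an adjusted p of 0.05 in any comparison (limma). An unadjusted p under 0.05 was found at 0 for FK866 against Control and 1 for FK866 plus succinate against FK866. It was found at 2 for FK866 plus succinate against Control.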

How the data were processed

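The tools named in the submitters' processing notes are cutadapt 1.9, an adapter trimmer, and the aligner Bowtie2 2.5.0, with the build mm10. The authors deposited 1 list of peaks per library in 10 columns, and the sources used here do not give the peak caller, any input control or the treatment of reads that match several places. Each deposited peak has positions, a score, a ratio of its signal to the local background (fold), and a -log10 p and -log10 q, all relative to its own library; these were compared only within a list. Read depth is unknown, so no counting interval was given. Peaks on 21 chromosomes were used, which left out 43 to 55 per library.

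From the peaks, the percentage of each gene window (span plus 2 kb) covered was computed with Python 3.11.15, pandas 2.3.3 and numpy 2.4.6. Genes with a peak in at least 2 of 6 libraries were compared with limma 3.58.1 in R 4.3.3 (1 spread over all 6 libraries, prior spread following window length, Benjamini-Hochberg adjustment at 0.05 over all genes tested), after a check on simulated data. Starts and promoters came from RefSeq (GRCm38.p6), promoter alignments from biopython 1.88 and plots from matplotlib 3.10.9. Clusters and single values got no test.

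Named genes were, per comparison, up to 4 with the largest positive and 4 with the largest negative difference among those whose groups do not overlap, genes with no or partial peaks, the highest and lowest of each family, testis variants and lone genes; others are said to be chosen after seeing values. The genes, lists and tests were chosen with earlier results of these data known. Alternatives are given in the closing section; the windows at the listed start, the comparison with short genes, the start counts under other peak sets and the AAACACA motif were added after seeing the data.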

Additional observations from a re-analysis of the deposited data

How the results depend on the processing

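No histone gene passed an adjusted p of 0.05 in limma under any alternative tried. Over all genes, calls appeared under some. FK866 against Control gave 6 genes with no filter and 11 with the prior spread following mean coverage. FK866 plus succinate against FK866 gave 1 with the higher-scoring 50% of each list, 9 with no filter and 11 with the spread following mean coverage. FK866 plus succinate against Control gave 1 with the higher-scoring 50%, 2 with lists of equal length, 34 with no filter, 1 with peaks of adjusted p under 0.05, 1 with 4-kb windows at the start and 24 with the spread following mean coverage. Leaving out each library in turn gave 0 calls in all 3 comparisons.

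The median over the histone genes was 0.127 points after quantile normalization for FK866 plus succinate against FK866. For FK866 plus succinate against Control it was 1.01 points after quantile normalization and 0 points with 1 kb on either side. After that normalization, groups did not overlap at 10 of 64 histone genes (higher, against 22.4% of all genes) and 2 (lower, against 13.1%) for FK866 against Control. The counts were 18 (higher, against 16.9%) and 12 (lower, against 23.2%) for FK866 plus succinate against FK866, and 17 (higher, against 18.7%) and 11 (lower, against 15.7%) for FK866 plus succinate against Control. Coverage of all 4 clusters with peaks of adjusted p under 0.05 differed by -1.71 points for FK866 plus succinate against FK866 and -0.858 points for FK866 plus succinate against Control. Leaving out each library in turn, the cluster difference ranged from 0.0588 to 1.65 points for FK866 against Control, from -1.38 to -0.574 for FK866 plus succinate against FK866 and from -0.920 to 0.672 for FK866 plus succinate against Control, where both ends came from leaving out a Control library. The cause of these shifts was not tested.

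Of 332 alternative values for named genes, 5 changed sign. Many of these values could not change sign. Groups do not overlap at the named genes, so leaving out 1 library keeps the sign. The fits with no filter, with the spread following mean coverage and with the replicate block leave the differences as they were. The count is therefore no measure of stability. H4c18 was 2.125 points for FK866 against Control in 4-kb windows at the strongest summit. H2bc6 was -2.5125 points against FK866 and -1.1875 points against Control for FK866 plus succinate, in 4-kb windows at the strongest summit and likewise at its first listed start.

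With the replicate number as a block (replicate block), 0 genes were called in each comparison. Libraries of the same number did not deviate together (r = 0.00645, 0.0216 and -0.0585 over 15362 genes), so the numbers were not taken as pairs.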
